A study of Mus musculus with 145 samples.

Results

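The 35 genes described here are skeletal muscle genes, read in whole dorsal skin of mice after ultraviolet exposure. They were taken by name, and all 35 were found among the 55416 genes of the count table. The animals received 5, 10, 20 or 40 mJ/cm2 of ultraviolet light from the lamps of a tanning canopy, or a sham exposure, and skin was taken at 0, 6, 24, 48, 72 or 96 h. The 145 libraries fill 30 groups, 25 with 5 animals and 5 with 4. The smaller ones are the 20 mJ/cm2 group of 48 h and each irradiated group of 96 h. The labels give no strain, genotype, sex or age, and no group carries an agent other than the exposure.

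In mice a thin sheet of striated muscle, the panniculus carnosus, lies below the fat of the dorsal skin. It is made mostly of fast fibres, in which myosin pulls on actin filaments once calcium released from internal stores has acted on troponin and tropomyosin. A full-thickness skin sample can take this sheet along. In such bulk samples, fewer muscle cells and less RNA per muscle cell cannot be told apart.

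Total counts ran from 0.18 to 64.6 M (megacounts) per library with a median of 11.1 M, and 2 libraries were below 1 M (10 mJ/cm2 replicate 5 at 6 h and 20 mJ/cm2 replicate 5 at 0 h). All 35 genes passed the filter on low counts that kept 18677 genes. The 5 heart muscle markers summed to at most 20.7 CPM (counts per megacount of the library) in any library. Values below are CPM on library sizes scaled by the trimmed mean of M-values (TMM). Log2 fold changes compare a dose with sham animals of the same time and are given with their standard error, and n is 5 per group unless stated. A gene passed at a Benjamini-Hochberg adjusted p under 0.05 in edgeR's quasi-likelihood F test over all 18677 genes. Shares of all genes called use this adjusted threshold. Counts of members at an unadjusted p under 0.05 have no share of all genes at that threshold beside them and cannot be set against the shares called.

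The 35 genes together held between 0.912 and 9.52% of a library's counts, a 10.4-fold range, with a median of 5.21%. Sham animals held 2.97 ± 0.818% (SD, n = 5) at 0 h, 5.72 ± 1.47% at 6 h, 6.66 ± 0.968% at 24 h, 7.24 ± 1.16% at 48 h, 6.89 ± 1.94% at 72 h and 5.95 ± 1.49% at 96 h. The share was thus lowest in sham animals at 0 h. At 48 h the shares in sham replicates 1 to 5 were 8.57, 5.86, 6.29, 7.40 and 8.10%, and at 40 mJ/cm2 they were 4.67, 3.05, 3.99, 3.63 and 3.32%. All 5 irradiated animals lay below all 5 sham animals, and their mean was 51.5% of the sham mean. At 72 h the shares at 40 mJ/cm2 were 2.79, 1.82, 3.52, 3.39 and 9.52%, against 7.52, 6.66, 3.65, 8.14 and 8.47% in sham. There the groups overlapped, because replicate 5 at 40 mJ/cm2 held the highest share of all 145 libraries.

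**Figure D1:**
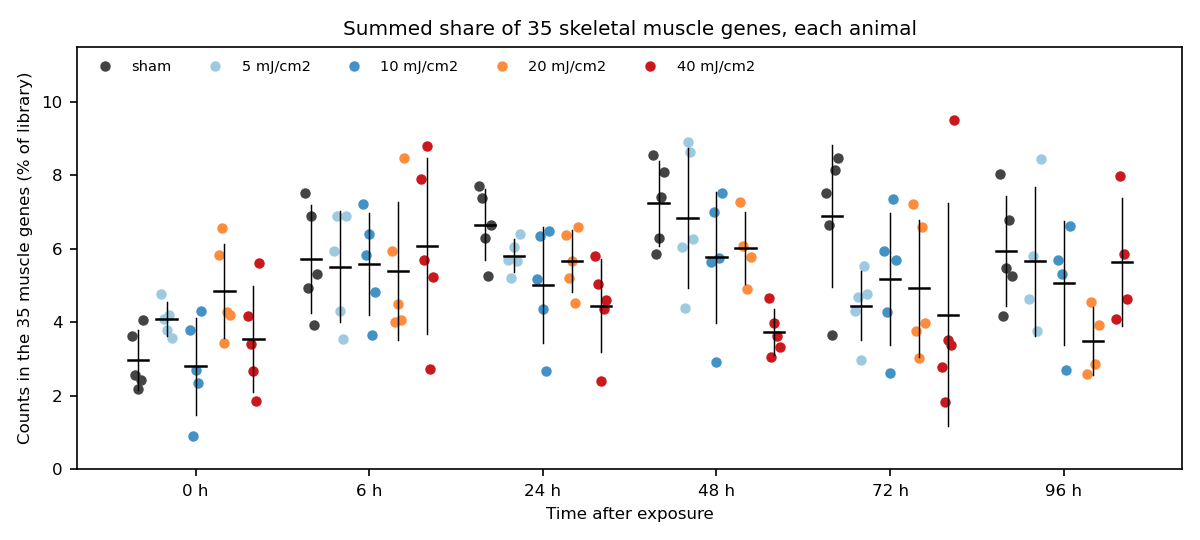
Counts in the 35 muscle genes as a percentage of each library, by time and dose. Points are single animals (n = 5, or 4 in 5 groups), horizontal bars group means and vertical lines SD. At 48 h the 40 mJ/cm2 animals (3.05 to 4.67%) lie below the sham animals (5.86 to 8.57%), and at 72 h 1 animal stands at 9.52%.

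Levels of different genes were compared per kilobase of exon, as means over the 145 libraries. Skeletal alpha actin, Acta1, led with 2608 CPM per kb, followed by the fast regulatory light chain Mylpf (2111), fast troponin T Tnnt3 (2034), fast troponin C Tnnc2 (1809) and the fast calcium pump Atp2a1 (1659.6). The order of the first members differed between groups. Acta1 led in 22 of the 30 groups, Tnnt3 in 5 and Mylpf in 3. In sham animals at 0 h Tnnt3 stood at 1805 ± 982 CPM per kb (SD, n = 5) and Acta1 at 1284 ± 1078, a gap smaller than either SD, and at 48 h Acta1 led with 4179.5 ± 1084 over Mylpf with 2808 ± 578. Among the myosin heavy chains the order of the means over all libraries was Myh4 (1365 CPM per kb), of the fastest (type IIB) fibres, then Myh1 (335), of type IIX fibres, and Myh2 (44.5), of type IIA fibres. Myostatin, Mstn, a secreted brake on muscle growth, stood at 55.2 CPM per kb, and the junction gene Jph1 was lowest at 15.2. The slow fibre myosin gene Myh7, which is no member, stood at 0.381 ± 0.546 CPM (SD) in sham animals at 48 h.

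At 48 h after 40 mJ/cm2, 26 of the 35 genes had fallen and 0 had risen (edgeR), where 3.61% of all genes tested were called down and 7.62% were called at all. The log2 fold change was negative for all 35, with a median of -1.08 against -0.002 over all genes tested. In 29 of the 35 every irradiated animal lay below every sham animal, which held for 6.11% of all genes. Without correction for many tests 33 had p under 0.05. The number that passed was 14 when all libraries were fitted together, 17 without sham replicate 5 and 17 without 40 mJ/cm2 replicate 5. With library sizes scaled on 33 other skeletal muscle genes, which moved the median of all genes to 0.84, 3 passed, and Xirp2 and Mybpc1 turned to 0.04 and 0.23. For these alternative fits the share of all genes called is not given, so a change in calling over all genes cannot be told apart.

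**Figure D2:**
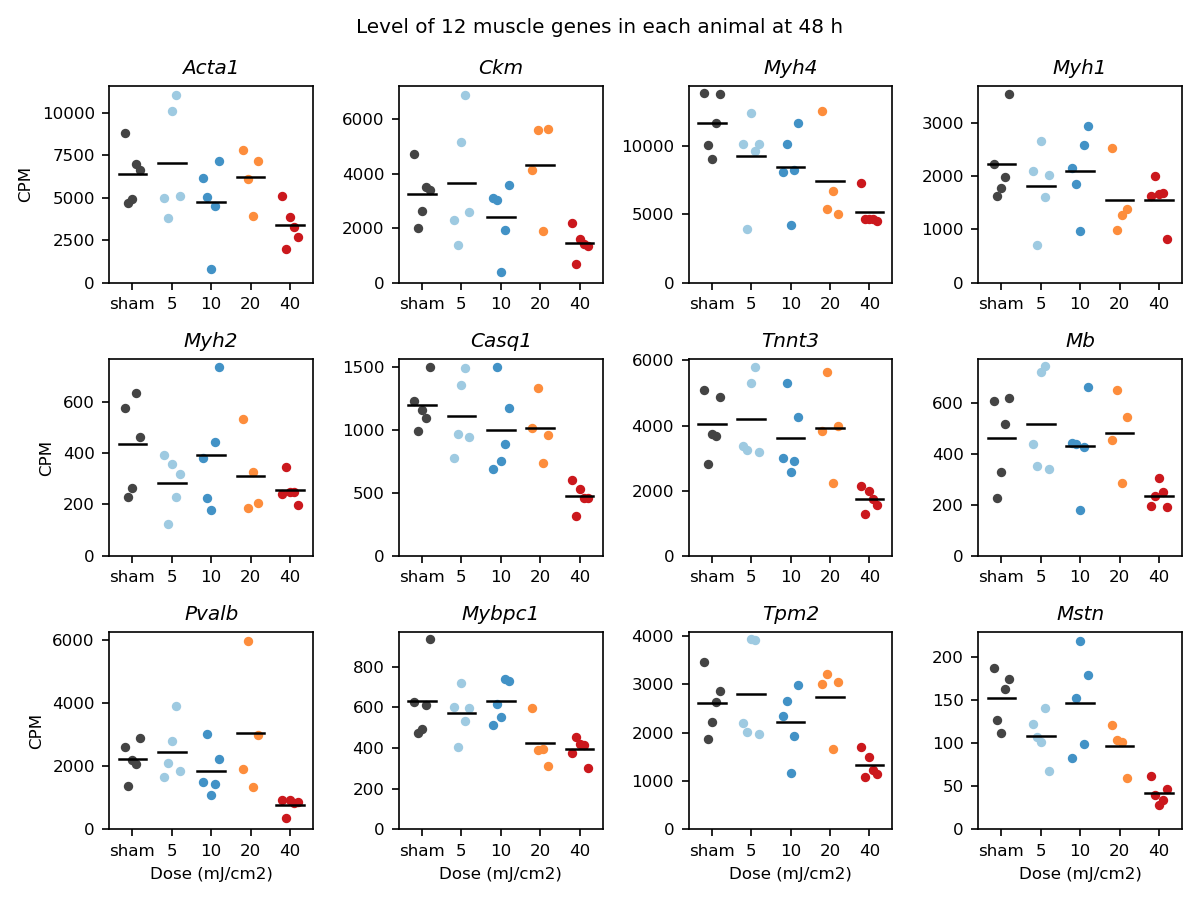
CPM of 12 muscle genes in each animal at 48 h, by dose. Points are single animals (n = 5, or 4 at 20 mJ/cm2) and bars are means. At 40 mJ/cm2 the animals lie below sham for Myh4, Casq1, Tnnt3, Pvalb, Mybpc1, Tpm2 and Mstn, and overlap with sham for Acta1, Ckm, Myh1, Myh2 and Mb.

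Mstn (ENSMUSG00000026100) fell the most. It stood at 187, 127, 112, 163 and 175 CPM in sham replicates 1 to 5 and at 61.6, 39.6, 28.5, 34.1 and 46.8 CPM at 40 mJ/cm2. The groups did not overlap, and the log2 fold change was -1.87 ± 0.27 (edgeR adjusted p = 1.49e-04). The lower doses held 67.6 to 141 CPM at 5, 83.2 to 219 CPM at 10 and 59.6 to 121 CPM at 20 mJ/cm2 (n = 4). Each of these 3 groups overlapped with sham, and Mstn did not pass there.

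Of the thick filament genes, Myh4 stood at 13884, 10040.0, 9012, 11705 and 13765 CPM in sham and at 7284, 4631, 4647, 4645 and 4494 CPM at 40 mJ/cm2. It fell by 1.19 ± 0.30 on the log2 scale (edgeR adjusted p = 0.0143), with no overlap. Myh1 stood at 2229.7, 1637, 1783, 1979.6 and 3557 CPM in sham and at 1622, 2002, 1674, 1689 and 826 CPM at 40 mJ/cm2, which overlap (log2 -0.52 ± 0.34, edgeR adjusted p = 0.450). Myh2 overlapped as well, with 573, 231, 266, 633 and 464 CPM in sham and 242, 347, 247, 248 and 198 CPM at 40 mJ/cm2 (log2 -0.76 ± 0.38, edgeR adjusted p = 0.274). These 3 heavy chains are close in sequence, and so are Acta1 and the other actins. Reads shared between such genes may have been divided by estimate, so these values are uncertain, and how their reads were assigned was not tested. The essential light chain Myl1 fell by 1.11 ± 0.28, and the regulatory light chain Mylpf had -1.08 ± 0.37 without passing (edgeR adjusted p = 0.0759). Myosin-binding protein C has a fast form, Mybpc2, which fell by 1.06 ± 0.29, and a form named slow, Mybpc1, which fast fibres also make. Mybpc1 stood at 628, 475, 495, 613 and 938 CPM in sham and at 376, 456, 419.6, 416 and 303 CPM at 40 mJ/cm2. The groups did not overlap, and its fall of 0.67 ± 0.21 was the smallest of those that passed (edgeR adjusted p = 0.0482).

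Most thin filament genes fell, while the actin gene itself did not pass. Acta1 (ENSMUSG00000031972) stood at 8793, 4720.3, 4940.3, 7004 and 6641 CPM in sham and at 5101, 2008, 3838, 3293 and 2682 CPM at 40 mJ/cm2. Its highest irradiated animal lay above 2 sham animals, and it did not pass (log2 -0.92 ± 0.41, edgeR adjusted p = 0.195). Tnnt3 stood at 5089, 2815, 3729.5, 3682 and 4871 CPM in sham and at 2147, 1281, 2003, 1731 and 1569 CPM at 40 mJ/cm2, with no overlap and a fall of 1.21 ± 0.26 (edgeR adjusted p = 0.00551). The other fast troponin genes, Tnnc2 and Tnni2, fell by 1.17 ± 0.29 and 1.14 ± 0.33. The tropomyosin gene Tpm2 stood at 3470.1, 1869.6, 2216, 2630.3 and 2851 CPM in sham and at 1708, 1072, 1503, 1219 and 1146 CPM at 40 mJ/cm2. It did not overlap and fell by 0.97 ± 0.27 (edgeR adjusted p = 0.0267). Neb, whose giant product nebulin runs along the thin filament, fell by 1.02 ± 0.25.

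Of the 7 genes of calcium handling 6 fell. Casq1, the calcium-binding protein of the store, stood at 1226, 990.3, 1158, 1093 and 1495 CPM in sham and at 600.3, 319.7, 533, 455 and 459 CPM at 40 mJ/cm2. Its groups did not overlap, and it fell by 1.33 ± 0.23 (edgeR adjusted p = 8.68e-04). The pump gene Atp2a1 fell by 1.27 ± 0.31 and the voltage sensor gene Cacna1s by 1.00 ± 0.29. Trdn and Jph1, which hold the release unit together, fell by 1.11 ± 0.29 and 1.16 ± 0.20. The release channel gene Ryr1 had -0.96 ± 0.34 and did not pass (edgeR adjusted p = 0.0993), with every irradiated animal below every sham animal. Pvalb, a calcium buffer of fast fibres, stood at 2608, 1379, 2196, 2066 and 2889.7 CPM in sham and at 926, 363, 932, 819 and 849.8 CPM at 40 mJ/cm2. It did not overlap and fell by 1.53 ± 0.36 (edgeR adjusted p = 0.00962), the largest fall after Mstn.

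Of the energy genes, muscle creatine kinase Ckm (ENSMUSG00000030399) stood at 4707, 1989.9, 2632, 3508 and 3384 CPM in sham and at 2198, 696, 1589.9, 1431 and 1334 CPM at 40 mJ/cm2. Replicate 1 at 40 mJ/cm2 lay above sham replicate 2, and Ckm did not pass (log2 -1.16 ± 0.48, edgeR adjusted p = 0.155). The AMP deaminase gene Ampd1 fell by 1.36 ± 0.23, the glycogen phosphorylase gene Pygm by 1.24 ± 0.28 and the muscle enolase gene Eno3 by 1.08 ± 0.33. The glycolytic mutase gene Pgam2 had -1.01 ± 0.40 and did not pass (edgeR adjusted p = 0.145). Myoglobin, Mb, the oxygen store of muscle, stood at 609.9, 227, 329.6, 520.0 and 621 CPM in sham and at 198, 237, 304, 252 and 194 CPM at 40 mJ/cm2, which overlap (log2 -0.96 ± 0.32, edgeR adjusted p = 0.0665).

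Among scaffold genes of the sarcomere, Ttn, which encodes the molecular spring titin, fell by 1.08 ± 0.23. The Z-disc genes Actn3, Myoz1, Ldb3 and Myot fell by 1.30 ± 0.33, 1.42 ± 0.34, 0.93 ± 0.22 and 0.98 ± 0.20. The actin-binding repeat gene Xirp2 fell by 0.85 ± 0.26 and the small muscle protein gene Smpx by 0.93 ± 0.26. The titin cap gene Tcap had -0.98 ± 0.38 and did not pass (edgeR adjusted p = 0.133).

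Libraries differed in how the levels of genes outside the muscle lists varied with GC content. GC content was that of a gene's longest transcript, known for all 35 members and 18615 of the 18677 genes tested. In each library the deviation of these genes from their own means was regressed on GC content. In sham animals at 72 h the slope ran from -1.16 to 0.748 log2 units per 10 percentage points of GC. At 48 h sham libraries spanned 0.169 to 0.55 and the libraries of 40 mJ/cm2 0.164 to 0.465, so those groups overlapped in slope. What this slope reflects was not tested. Offsets that take it out were added to the fit after the data had been seen.

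With the GC offsets 33 of the 35 genes fell at 48 h after 40 mJ/cm2 and 0 rose (edgeR), where 6.47% of all genes were called down. The median log2 fold change was -1.10. Acta1 then passed with -1.0 ± 0.27 (edgeR adjusted p = 0.0174), Ckm with -1.21 ± 0.39 (0.0457), Tcap with -1.06 ± 0.21 (0.00147) and Mb with -0.99 ± 0.24 (0.00836). In that fit Myh1 (-0.55 ± 0.32, edgeR adjusted p = 0.310) and Myh2 (-0.77 ± 0.35, 0.177) were the members that did not pass. The standard error of Tcap went from 0.38 to 0.21 and that of Acta1 from 0.41 to 0.27. A fit of the sham and 40 mJ/cm2 libraries alone, also added after seeing the data, called 33 of the 35 (16.5% of all genes called).

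**Figure D3:**
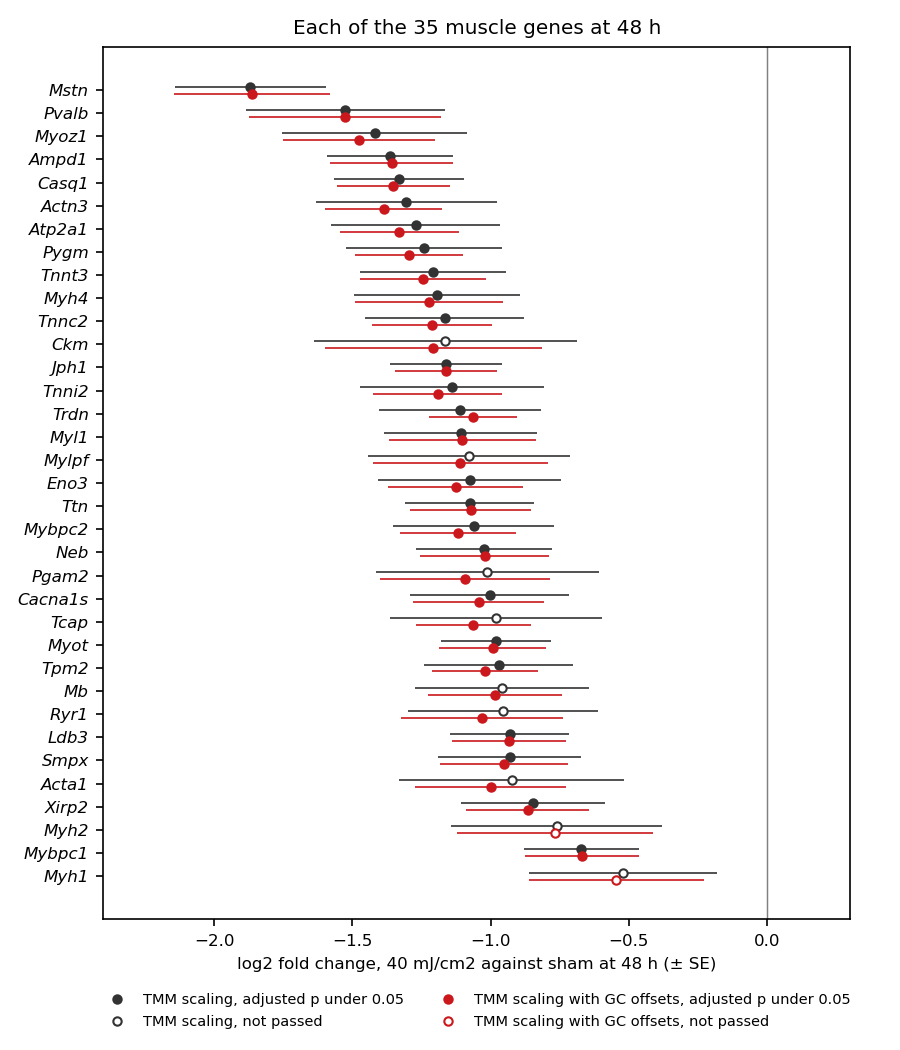
Log2 fold change of each of the 35 muscle genes at 40 mJ/cm2 against sham at 48 h (n = 5 per group), with standard error bars. Black points are the TMM fit and red points the same fit with GC offsets, and filled points have an edgeR adjusted p under 0.05. All 35 lie below 0 in both fits, 26 and 33 of them filled.

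At 24 h after 40 mJ/cm2, 2 of the 35 genes had fallen, Tnnt3 and Mybpc1, where 1.3% of all genes were called down and 2.92% at all. Without correction 21 of the 35 had p under 0.05, a threshold at which no share of all genes is given. Tnnt3 stood at 4051, 5742, 4615, 4006 and 3684 CPM in sham replicates 1 to 5 and at 3116, 2888, 1357, 3593 and 1882 CPM at 40 mJ/cm2, a fall of 0.78 ± 0.21 (edgeR adjusted p = 0.0470). Mybpc1 stood at 798, 923, 896, 768 and 717 CPM in sham and at 542, 499.9, 389, 765 and 551 CPM at 40 mJ/cm2, a fall of 0.58 ± 0.15 (edgeR adjusted p = 0.0376). For Tnnt3 the groups did not overlap, and for Mybpc1 replicate 4 at 40 mJ/cm2 lay within the sham range. Both calls were lost in most of the 10 runs with 1 animal left out, while the fold changes stayed negative. These ran from -0.96 to -0.60 for Tnnt3 and from -0.74 to -0.47 for Mybpc1. The count was 13 without 40 mJ/cm2 replicate 4, 1 without sham replicate 5 and 0 without any single one of the other 8, and it was 5 in DESeq2 and 0 when all libraries were fitted together. No share of all genes called is given beside these counts. The median over the 35 was -0.62. With GC offsets 20 of the 35 fell (5.06% of all genes called down), among them Myh4 (-0.76 ± 0.22), Xirp2 (-0.76 ± 0.17), Tcap (-0.74 ± 0.18) and Myh1 (-0.58 ± 0.16). Tnnt3 then no longer passed (-0.72 ± 0.27, edgeR adjusted p = 0.0782).

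At 72 h after 40 mJ/cm2 all 35 fold changes were negative, with a median of -0.77, but 0 passed (1.16% of all genes called) and 14 had an unadjusted p under 0.05. DESeq2 called 0 as well. The count was 6 without 40 mJ/cm2 replicate 5, the animal with the high share, and 2 without replicate 3, each without the share of all genes called in that fit. With GC offsets 2 fell (1.27% of all genes called down), Ryr1 by 1.07 ± 0.30 and Xirp2 by 0.94 ± 0.26. At 0, 6 and 96 h after 40 mJ/cm2 the medians were 0.29, 0.06 and -0.11. At each of these 3 times 0 of the 35 passed in edgeR or DESeq2 and 0 had an unadjusted p under 0.05, where 0, 5.03 and 0.118% of all genes were called.

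In each of the 18 comparisons of 5, 10 and 20 mJ/cm2 with sham 0 of the 35 passed in edgeR, where 0 to 0.525% of all genes were called. The number with an unadjusted p under 0.05 was at most 11 (20 mJ/cm2 at 0 h, all upward). DESeq2 called 2 at 20 mJ/cm2 and 0 h, 4 at 20 mJ/cm2 and 48 h and 0 in the other 16. Without 20 mJ/cm2 replicate 1 at 48 h, edgeR called 8 there. Neither the DESeq2 counts nor this one has the share of all genes called beside it. At 24 h the medians were -0.29, -0.39 and -0.31 at 5, 10 and 20 mJ/cm2, at 48 h -0.08, -0.24 and -0.32, and at 72 h -0.71, -0.46 and -0.52. All 4 doses of a time share their sham animals, and at 72 h all 35 fold changes were negative at each dose. At 20 mJ/cm2 and 96 h (n = 4) the median was -0.67, with 10 genes at an unadjusted p under 0.05. There every irradiated animal lay below every sham animal in 8 of the 35 (0.846% of all genes). In the other lower dose comparisons that held for at most 2 of the 35, and for 0 at 20 mJ/cm2 and 0 h (0.643% of all genes) and at 10 and 20 mJ/cm2 and 6 h (2.12 and 1.77%). Where the count was 1 or 2, no share of all genes is given beside it, so it cannot be set against one.

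Across the 4 irradiated groups at 48 h, 5 of the 35 genes fell with log2 dose (1.06% of all genes called down), and all 35 slopes were negative with a median of -0.31 per doubling of dose. The 5 were Mstn (-0.48 ± 0.13 per doubling, edgeR adjusted p = 0.0460), Casq1 (-0.36 ± 0.10 per doubling, 0.0438), Ampd1 (-0.36 ± 0.10 per doubling, 0.0388), Jph1 (-0.32 ± 0.08 per doubling, 0.0283) and Myot (-0.32 ± 0.07 per doubling, 0.0166). With GC offsets 22 fell with dose at 48 h (3.74% of all genes called down). At 6, 24, 72 and 96 h 0 of the 35 slopes passed in edgeR with or without the offsets, and at most 2 had an unadjusted p under 0.05. There 1.43, 0.98, 0.551 and 0.0428% of all genes were called without the offsets.

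Whether the 40 mJ/cm2 effect changed with time was tested over all libraries. It differed between times for 0 of the 35 genes in edgeR (5.01% of all genes called), with a lowest adjusted p of 0.0611 and 19 at an unadjusted p under 0.05. Without the 2 smallest libraries it differed for 1, with no share of all genes called given for that fit. With GC offsets it differed for 10: Tnnc2, Tnni2, Actn3, Atp2a1, Pygm, Eno3, Mstn, Jph1, Myoz1 and Ldb3 (11% of all genes called). From 48 to 96 h the estimated effect was higher for all 35, by a median of 1.03, with 0 passing (0.0696% of all genes called) and 19 at an unadjusted p under 0.05. From 24 to 48 h the median difference was -0.46, with 0 passing (0% of all genes called) and 1 at an unadjusted p under 0.05.

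Sham animals also differed between times, in 9 of the 35 genes (4.95% of all genes called): Myh4, Ampd1, Pvalb, Actn3, Casq1, Ryr1, Ldb3, Mybpc2 and Tnnc2. All 9 were lowest at 0 h. The median of the 35 against 0 h was 0.90 at 6 h, 1.04 at 24 h, 1.15 at 48 h, 1.18 at 72 h and 0.93 at 96 h. Myh4 was higher than at 0 h by 1.33 to 1.56 at the later times, while Myh1 had -0.74 to -0.29 and did not pass (edgeR adjusted p = 0.712). With GC offsets 12 genes passed (7.45% of all genes called), but 2 of the 9 did not, Casq1 (edgeR adjusted p = 0.0714) and Ryr1 (0.140). The value of Ryr1 at 48 h against 0 h went from 1.59 to 0.79.

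Without GC offsets, the members did not vary between animals as 1 block. A muscle index was computed as the mean log2 CPM of 33 other skeletal muscle genes that are no members, and it was subtracted from each member within each library. The spread of log2 CPM within groups was then lower in 24 of the 35, with a median SD of 0.452 against 0.627. It was higher in 11: Trdn, Mstn, Xirp2, Smpx, Neb, Ttn, Jph1, Myot, Ampd1, Myl1 and Mybpc1. What was left lay mostly on 1 axis, which carried 69.4% of the variation within groups. Trdn, Mstn, Xirp2, Smpx, Neb and Ttn lay at one end of it, and Acta1, Ckm, Tcap, Pgam2, Eno3 and Actn3 at the other.

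GC content differed along this axis. Over the 35 genes Spearman's rho between the position on the axis and GC content was -0.909, and 0.488 with exon length, a description across genes that share the same libraries. GC content ran from 36.8% for Trdn and 38.1% for Mstn to 57.96% for Ryr1 and 61.3% for Tcap, with a median of 53.2% against 49.4% over all genes. The stretches below are 150 bases from the middle of the coding sequence of Trdn, Ryr1 and Tcap, from the longest GENCODE transcript of build GRCm38, with G and C in capitals. They are shown as examples of low and high GC content. Trdn lay at one end of the axis and Tcap near the other, while Ryr1 lay near its middle (loading -0.04). The Trdn stretch holds 39.3% G and C, the Ryr1 and Tcap stretches 54.7 and 66.0%. They span coding bases 965 to 1114 of Trdn, 7478 to 7627 of Ryr1 and 176 to 325 of Tcap.
Trdn: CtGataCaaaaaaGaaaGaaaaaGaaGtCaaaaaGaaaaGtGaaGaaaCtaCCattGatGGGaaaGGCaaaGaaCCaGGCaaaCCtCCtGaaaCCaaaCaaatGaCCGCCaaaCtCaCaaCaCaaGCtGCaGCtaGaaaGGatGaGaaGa
Ryr1: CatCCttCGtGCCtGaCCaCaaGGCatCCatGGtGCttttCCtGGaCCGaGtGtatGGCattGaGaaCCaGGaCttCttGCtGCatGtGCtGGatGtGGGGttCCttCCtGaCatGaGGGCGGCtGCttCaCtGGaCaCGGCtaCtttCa
Tcap: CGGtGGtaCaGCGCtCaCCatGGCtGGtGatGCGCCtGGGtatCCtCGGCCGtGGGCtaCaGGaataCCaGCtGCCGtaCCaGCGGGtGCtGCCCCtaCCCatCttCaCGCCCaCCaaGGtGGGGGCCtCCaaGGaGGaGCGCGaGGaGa

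Across the 145 libraries, a library's score on the axis of the 35 genes went with the GC slope of the genes outside the muscle lists. With group means removed, Pearson's r was -0.99 and Spearman's rho -0.986 (permutation p = 1e-05 for both, the smallest that 100000 permutations can give). Without the 2 libraries farthest from the median slope r was -0.989. This was the single relation between library measures that was computed. The lowest score and the highest slope, 1.01 log2 units per 10 points, belonged to 20 mJ/cm2 replicate 4 at 48 h. The share of mitochondrial genes moved with the slope as well. It was 11.7 to 34.8% of counts in the 5 libraries of lowest slope and 1.86 to 3.34% in the 5 of highest slope, and its part in the axis was not tested. With the GC offsets applied, the spread after subtracting the index was lower than before it in all 35 genes, with a median SD of 0.330 against 0.492. The sum of squares left after subtracting the index was then 43.0% of that without the offsets. A first axis computed anew on it carried 33.2% of the variation within groups.

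**Figure D4:**
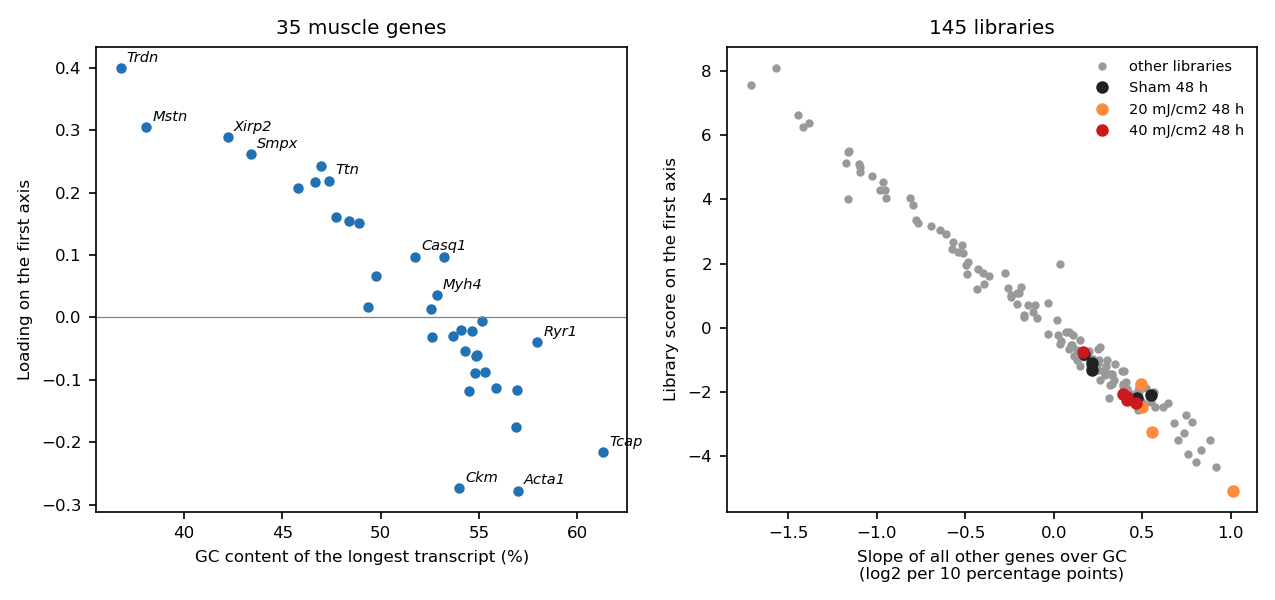
Left, position of each of the 35 muscle genes on the first axis of variation left after subtracting the muscle index, against the GC content of its longest transcript (Spearman's rho -0.909 over 35 genes). Right, score of each of the 145 libraries on that axis against the slope of genes outside the muscle lists over GC (Pearson's r -0.99 with group means removed), with 20 mJ/cm2 replicate 4 at 48 h at a slope of 1.01.

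Change of single members relative to the shared level of other muscle genes was assessed by adding the muscle index to the fit. The index is itself a level of RNA, so it cannot separate the number of muscle cells from RNA per muscle cell. At 48 h after 40 mJ/cm2, 7 of the 35 were then lower and 0 higher, where 4.66% of all genes were called down and 12.2% at all. The median over the 35 was -0.25. The 7 were Mstn (-1.77 ± 0.33, edgeR adjusted p = 0.00213), Trdn (-1.45 ± 0.35, 0.0108), Jph1 (-1.0 ± 0.24), Ttn (-0.92 ± 0.28), Ampd1 (-0.79 ± 0.19), Casq1 (-0.76 ± 0.20) and Myot (-0.71 ± 0.23). Acta1, Ckm and Tcap had values of 0.50 ± 0.26, 0.53 ± 0.30 and 0.43 ± 0.24 and did not pass. All 7 had a GC content below the median of the members, Casq1 at 51.8% and the other 6 between 36.8 and 48.4%.

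With the GC offsets and the index together, 0 of the 35 passed at 48 h after 40 mJ/cm2 (edgeR, 2.99% of all genes called), and 8 had an unadjusted p under 0.05. Mstn had -0.89 ± 0.32 (edgeR adjusted p = 0.149), Casq1 -0.63 ± 0.22 (0.126), Trdn -0.54 ± 0.18 (0.122), Jph1 -0.51 ± 0.21 (0.205), Ttn -0.50 ± 0.28 (0.427), Ampd1 -0.38 ± 0.18 (0.297) and Myot -0.10 ± 0.16 (0.817). The count also moved with the other doses in the fit, which share the slope on the index. It was 1 with the sham and 40 mJ/cm2 libraries alone (3.8% of all genes called) and 13 without 20 mJ/cm2 replicates 2 and 4 (23.1% of all genes called). Both of these fits were chosen after the data had been seen. At 20 mJ/cm2 and 48 h the index fit called 3 of the 35 higher, Ckm, Tcap and Pgam2, and 4 lower, Ttn, Neb, Trdn and Xirp2 (15.5% of all genes called). That count was 0 with GC offsets in edgeR, where 0.134% of all genes were called, and 13 members had an unadjusted p under 0.05. The drop in members called therefore cannot be told from the drop in calling over all genes. In the 22 other comparisons of a dose with sham 0 of the 35 passed in edgeR with the index in the fit, with a lowest adjusted p of 0.0652 (40 mJ/cm2 at 24 h). At most 16 had an unadjusted p under 0.05 in any of them, and 0 to 9.86% of all genes were called, 0.91% at 20 mJ/cm2 and 6 h.

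**Figure D5:**
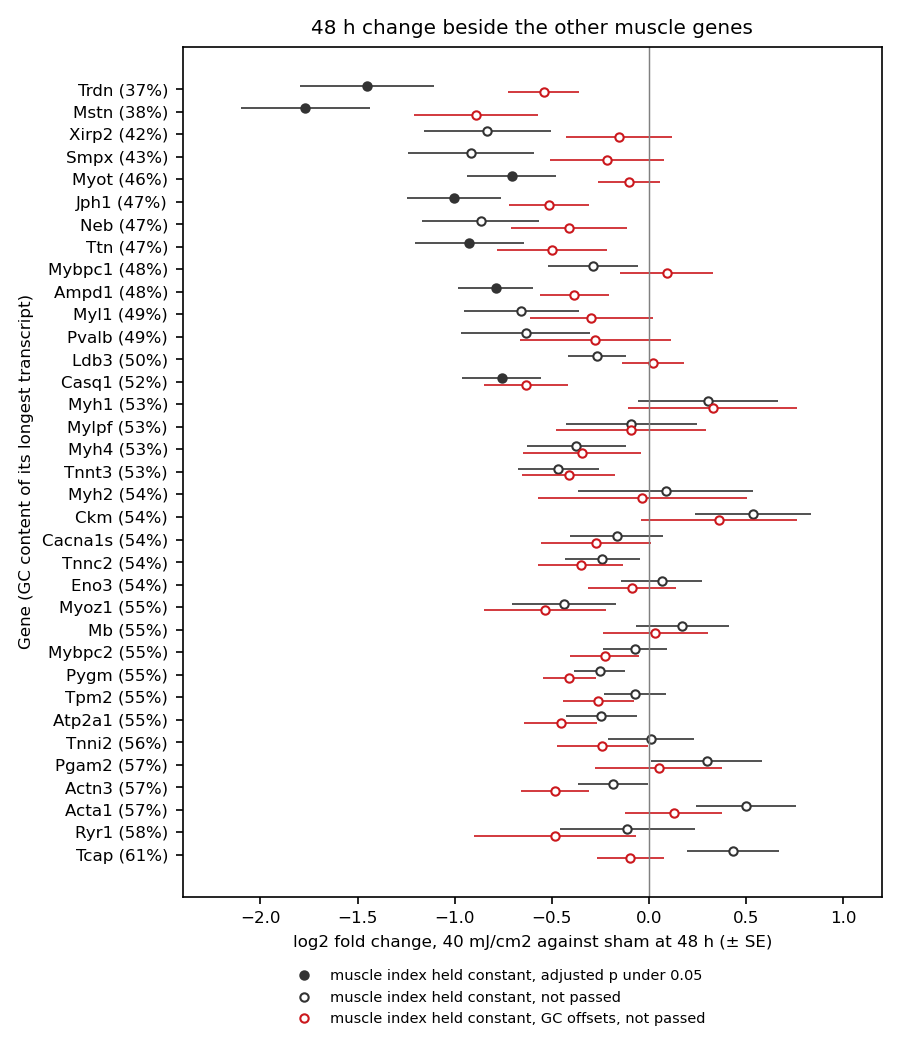
Log2 fold change of each of the 35 muscle genes at 40 mJ/cm2 against sham at 48 h with the muscle index held constant, with standard error bars, ordered by GC content of the longest transcript. Black points are the TMM fit, with 7 filled points at an edgeR adjusted p under 0.05, and red points the fit with GC offsets, where 0 are filled. The black points of Trdn and Mstn, the members of lowest GC content, lie left of the red ones.

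Ratios between 2 members of like GC content within an animal need no library scaling, and 3 were set up after the values had been seen. The log2 ratio of Mstn to Trdn was -0.83, -1.07, -1.53, -0.85 and -1.32 in sham replicates 1 to 5 at 48 h and -1.37, -1.89, -2.53, -2.28 and -1.43 at 40 mJ/cm2. The ranges overlapped, and the means differed by -0.78 (exact permutation test over the 252 splits of the animals, two-sided, p = 0.0318, adjusted 0.0952 over the 3 ratios). The log2 ratio of Myh1 to Myh4 was -2.64, -2.62, -2.34, -2.56 and -1.95 in sham and -2.17, -1.21, -1.47, -1.46 and -2.44 at 40 mJ/cm2. Its mean was higher by 0.67 (exact permutation p = 0.0635, adjusted 0.0952), and that of Myh2 to Myh4 by 0.52 (exact permutation p = 0.111, adjusted 0.111). With all 10 animals 0 of the 3 passed once adjusted. Each ratio was also tested in 10 runs with 1 animal left out. Mstn to Trdn passed in 2 of them, Myh1 to Myh4 in 2 and Myh2 to Myh4 in 1, and the other runs did not pass. Where it passed, the adjusted p of Mstn to Trdn was 0.0476 without 40 mJ/cm2 replicate 1 and 0.0357 without replicate 5. That of Myh1 to Myh4 was 0.0476 and 0.0357, and that of Myh2 to Myh4 0.0476 without replicate 1 (exact permutation tests).

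The sequence before the start of the gene is given for 3 members as a description. Of the 35 genes 25 had a promoter in the RefSeq table (build GRCm38.p6), and the 250 bases before the start were searched. The E-box CANNTG, the letters that myogenic factors such as MyoD bind, was present in 19 of the 25 (76.0%) and in 66.0% of all 27025 promoters. A MEF2 site was present in 6 of 25 (24.0%) against 3.01% of all promoters, and a CArG box, the motif of serum response factor, in 3 of 25 (12.0%) against 1.4%. All 3 patterns cover both strands and may overlap. Below, capitals mark these motifs in Myh4, which holds all 3, and in Ckm and Mstn, which hold E-boxes alone. The windows are chr11:67237562-67237811 (+ strand) for Myh4, chr7:19410844-19411093 (+ strand) for Ckm and chr1:53061390-53061639 (+ strand) for Mstn, all upstream of the first exon.
Myh4: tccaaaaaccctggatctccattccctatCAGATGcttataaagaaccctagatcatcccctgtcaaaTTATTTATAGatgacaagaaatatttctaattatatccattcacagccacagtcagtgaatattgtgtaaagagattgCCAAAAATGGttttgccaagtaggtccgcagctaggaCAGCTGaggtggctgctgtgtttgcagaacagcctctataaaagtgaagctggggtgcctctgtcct
Ckm: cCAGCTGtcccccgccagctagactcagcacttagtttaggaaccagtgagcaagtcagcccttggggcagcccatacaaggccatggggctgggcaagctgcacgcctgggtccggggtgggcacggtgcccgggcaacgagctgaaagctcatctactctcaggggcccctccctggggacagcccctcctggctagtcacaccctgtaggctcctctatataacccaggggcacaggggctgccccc
Mstn: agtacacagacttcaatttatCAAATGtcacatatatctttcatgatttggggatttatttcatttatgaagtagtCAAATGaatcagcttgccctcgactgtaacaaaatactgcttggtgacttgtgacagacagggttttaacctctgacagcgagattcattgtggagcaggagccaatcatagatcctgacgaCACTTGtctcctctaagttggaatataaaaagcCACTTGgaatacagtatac

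Other genes of muscle were read from lists, to set beside the members. Of the 33 index genes, 19 fell and 0 rose at 48 h after 40 mJ/cm2, with a median of -0.88. Of 11 slow fibre genes tested 0 fell and Tpm3 rose (0.65 ± 0.12, edgeR adjusted p = 0.00138), with a median of 0.35. That list summed to 478 to 549 CPM in sham and 606 to 780.2 CPM at 40 mJ/cm2, mostly from Tpm3 and Atp2a2, which other skin cells also express. For slow troponin I, Tnni1, the means were 0.900 ± 0.504 CPM (sham) and 2.29 ± 1.21 CPM (40 mJ/cm2), with SD.

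The 14 genes of muscle identity and regeneration had a median of -0.01, with 7 negative. They summed to 241 to 367 CPM in sham and 147 to 217 CPM at 40 mJ/cm2, which do not overlap. With 7 of the 14 negative, the summed fall does not hold for each of them. Among these 14 genes Chrna1, which encodes a subunit of the acetylcholine receptor, rose (0.72 ± 0.20, edgeR adjusted p = 0.0280). In the fit with GC offsets 2 of the 14 fell and 1 rose. Of 14 genes of the myostatin pathway, which signals through activin receptors and Smad proteins, the activin subunit genes Inhba and Inhbb rose by 1.51 ± 0.42 and 1.502 ± 0.22, and Smad3 fell by 0.44 ± 0.13. The myostatin receptor gene Acvr2b had -0.29 ± 0.34 and the antagonist gene Fst 0.60 ± 0.20, and neither passed (edgeR adjusted p = 0.747 and 0.0687). Of 14 genes of muscle atrophy and the glucocorticoid response, the ubiquitin ligase gene Fbxo32 (-0.97 ± 0.26), the metabolic kinase gene Pdk4 (-1.47 ± 0.38) and Tsc22d3 (-0.81 ± 0.23) fell, and the metallothionein gene Mt2 rose (1.47 ± 0.39). Many of these genes are expressed by other skin cells as well.

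Markers of other tissues were read in the same 10 libraries. All 5 nerve and Schwann cell markers had negative fold changes at 48 h after 40 mJ/cm2, with a median of -0.66 and 0 passing in edgeR (lowest adjusted p = 0.0527), and they summed to 375 to 732 CPM in sham and 199 to 328 CPM at 40 mJ/cm2. All 6 hair shaft markers tested, of 9 listed, were negative as well, with a median of -1.16 and 0 passing in edgeR (lowest adjusted p = 0.0922), and the list summed to 0.123 to 57.8 CPM in sham and 0.542 to 28.1 CPM at 40 mJ/cm2. Tendon markers summed to 142 to 199 CPM in sham and 70.3 to 126 CPM at 40 mJ/cm2, with 0 of 4 passing. With GC offsets 3 of 5 nerve and 2 of 4 tendon markers fell. Fat cell markers overlapped, with 444 to 1755 CPM in sham and 452 to 1541 CPM at 40 mJ/cm2, and so did endothelial markers, with 201 to 233 CPM in sham and 191 to 240.2 CPM at 40 mJ/cm2, and smooth muscle markers, with 418 to 619.7 CPM in sham and 411 to 647 CPM at 40 mJ/cm2, although Lmod1 among the latter fell (-1.08 ± 0.31, edgeR adjusted p = 0.0351). Of 3 brown fat markers tested 0 passed in edgeR (lowest adjusted p = 0.0861), with a median of 0.42. Neutrophil markers rose in 4 of 4 tested, and the list summed to 2.38 to 16.9 CPM in sham and 24.7 to 269.9 CPM at 40 mJ/cm2. Dermal fibroblast markers did not overlap, with 51380.0 to 66740.0 CPM in sham and 27620.0 to 45870.0 CPM at 40 mJ/cm2, nor did keratinocyte markers, with 6468 to 8277 CPM in sham and 9565 to 11910.0 CPM at 40 mJ/cm2. Of 7 dermal fibroblast markers Col1a1 (-0.79 ± 0.22) and Col1a2 (-0.93 ± 0.23) fell, and of 8 keratinocyte markers Krt14 (1.71 ± 0.39) and Dsg3 (1.02 ± 0.28) rose. With GC offsets the median of the 7 fibroblast markers was -0.17, with 2 falling and 1 rising, so the summed fall does not hold for each of them. That of the 8 keratinocyte markers was 0.38, with 3 rising. Mitochondrial genes took 4.37 ± 1.07% of counts in sham and 2.78 ± 0.694% at 40 mJ/cm2 (SD). The part of these other tissues in the fall of the 35 genes was not tested.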

How the data were processed

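Dorsal skin RNA of 145 mice was read as stranded poly(A) libraries. The authors' deposited table holds an expected count for each gene and library. Per the submitters' processing notes, bcl2fastq 2.20.422, fastp 0.23.0, STAR 2.7.10a and DESeq2 1.36.1 were named with build GRCm39; the program that counted and its annotation were not given in the sources used here. The deposited expected counts are not all whole (12.6% of values), and were rounded. Counts of near-identical genes depend on how the counting divided shared reads. Ensembl IDs were matched to symbols for 52083 of 55416 genes, and genes without one held 0.0906% of counts.

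Groups, doses and times come from the labels, and the replicate numbers only name animals in accession order. The highest correlation among 280 pairs of libraries of 1 group was 0.982, and no pair was a repeat of the same library within sampling noise. P-values measure the spread between animals. Library titles end in R1_001 (71 libraries) or R1 (74), and the labels do not say what this marks.

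Each time was fitted with edgeR 4.0.16 (R 4.3.3), the 5 dose groups sharing 1 estimate of the spread and the title ending a covariate. TMM scaling, filterByExpr over 30 groups, glmQLFit and two-sided glmQLFTest were used, and p-values were adjusted by Benjamini-Hochberg over 18677 genes. Changes over time and between effects were tested in 1 fit of all libraries, and slopes over log2 dose in the 4 irradiated groups of a time. Log2 CPM used a prior count of 2. The muscle index is the mean log2 CPM of 33 of 34 listed non-member genes. GC offsets were fitted per library as a natural spline (5 df) of each gene's deviation from its mean log2 CPM over the GC content of its longest GENCODE transcript, for genes with a mean log2 CPM above 1. The GC offsets, the fits with fewer libraries and the ratios were added after seeing the data.

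The members and lists were chosen with earlier results of these data known. Per-animal values are given for 12 members chosen by name; in each comparison every called member is named up to 10, otherwise those of largest and smallest change, and all 35 are described at 48 h. Of the lists, the called genes are named, at most 5 of each, except that 1 is not reported here; Acvr2b, Fst, Tnni1, Atp2a2 and Myh7 were named after their values were seen. On simulated counts for 40 mJ/cm2 against sham at 48 h with 18677 genes, the test recovered 50% of genes changed by log2 1 and 94% of those changed by log2 2. In a simulation of that comparison with a tilt over GC added, 37 unchanged genes were called without and 10 with GC offsets. That tilt was the same in every 40 mJ/cm2 library. It was steeper than the difference between the real median slopes at 48 h, 0.218 in sham and 0.413 at 40 mJ/cm2. The run therefore does not show how the offsets act on the real counts.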

Additional observations from a re-analysis of the deposited data

Results flagged for a closer look

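In groups of 4 or 5 animals, a value was singled out where its gap to the nearest animal took an unusually large part of the group's range (Dixon's 95% critical value). Of 54 groups tested, 30 for the summed share and the others for single members, 3 had such a value, and chance gives about 1 in 20. The 35 genes held 9.52% of counts in 40 mJ/cm2 replicate 5 at 72 h, high against the other 4 animals. Myh4 stood at 7284 CPM in 40 mJ/cm2 replicate 1 at 48 h, high in its group though below all sham animals. Pvalb stood at 362.7 CPM in 40 mJ/cm2 replicate 2 at 48 h, low in its group.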

How the results depend on the processing

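For 40 mJ/cm2 against sham at 48 h, 26 members passed in edgeR with TMM scaling, 29 in DESeq2, 23 with DESeq2's size factors and 31 with no filter on low counts. The count was 14 when all libraries were fitted together, 3 with library sizes scaled on the index genes, 7 with the index as a covariate and 0 with GC offsets and the index together, and 17 to 26 with 1 animal left out. Of the members called there, Tnni2 and Eno3 turned to log2 fold changes of 0.013 and 0.066 with the index as a covariate, Xirp2 and Mybpc1 to 0.038 and 0.23 with index-scaled sizes, and Ldb3 and Mybpc1 to 0.022 and 0.092 with GC offsets and the index. At 24 h the 2 calls at 40 mJ/cm2 became 5 in DESeq2, 20 with GC offsets and 0 with no filter, index-scaled sizes, all libraries in 1 fit, the index, or the index and GC offsets; they became 0 to 13 with 1 animal left out. Mybpc1 at 24 h turned to 0.044 with index-scaled sizes. At 72 h the count of 0 became 2 with all libraries in 1 fit, 2 with GC offsets and 0 to 6 with 1 animal left out. At 20 mJ/cm2 the count of 0 became 2 in DESeq2, 2 with no filter and 1 with all libraries in 1 fit at 0 h, and 4 in DESeq2, 2 with no filter, 7 with the index and 0 to 8 with 1 animal left out at 48 h. The 5 slopes at 48 h became 0 with the index and 22 with GC offsets. The 9 members that changed over time in sham became 2 with the index, and the 0 whose 40 mJ/cm2 effect differed between times became 1 without the libraries below 1 M counts, 1 with the index and 10 with GC offsets. The 7 members called with the index held constant at 48 h became 3 with an index made of the other 34 members, 0 with GC offsets, 1 with the sham and 40 mJ/cm2 libraries alone, 13 without 20 mJ/cm2 replicates 2 and 4, and 5 to 6 with 1 animal left out. The member summed share of each library at 40 mJ/cm2 and 48 h had a mean of 51.5% of the sham mean, and the same for the sum of the index genes was 60.6%. The cause of these shifts was not tested. Shares of all genes called are not given here, so shifts in these counts cannot be told from shifts in calling over all genes.

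Leaving out the title ending kept all 66 results it was tried on. No filter on low counts was not run for the tests over all libraries, and no library at 48 h was below 1 M counts. In simulated counts for 40 mJ/cm2 at 48 h the test recovered 50% of genes changed by log2 1, so a count of 0 does not show that levels were equal. No paired analysis was possible because the replicate numbers only name animals in accession order.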
